A study of Mus musculus with 4 samples.

Results

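The lysosome is the acidic compartment in which cells break down proteins, lipids and glycans, and its genes were followed here in ribosome profiling libraries of mouse bone-marrow-derived monocytes on their way to becoming osteoclasts. The set was chosen by gene name and holds 47 of the 22417 genes of the deposited table: subunits of the vacuolar proton pump (V-ATPase), lysosomal enzymes other than cathepsins, lysosomal membrane proteins, the cofactors of these enzymes, and regulators of lysosome formation and trafficking. All 47 were found by symbol, had at least 1 count in every library and had enough counts to be tested. The table's own annotation places 33 of them in the KEGG lysosome pathway, which holds 130 of the listed genes.

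There were 2 libraries from mice labelled Nat10 conditional knockout (cKO) and 2 from mice labelled WT. Nat10 encodes an RNA acetyltransferase that writes the N4-acetylcytidine mark, and the series asks what its loss does to translation in osteoclast formation. Both genotypes received RANKL, the cytokine that turns monocytes into osteoclasts, for 3 days, and neither group was left undifferentiated. The sources used here do not name the Cre line, the deleted part of Nat10 or the age, sex and strain of the mice. Whether replicates are separate mice or separate cultures is also unstated, and p-values then cover only the spread between these libraries, which may be technical.

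Ribosome profiling sequences the mRNA stretches that ribosomes cover, so a count reflects both the amount of an mRNA and how often it is translated. No RNA-seq was used here, and these parts cannot be told apart. In such bulk samples, fewer cells of a type and less RNA per cell cannot be told apart either.

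Total counts were 1467611 in cKO replicate 1, 1481083 in cKO replicate 2, 906937 in WT replicate 1 and 3014620 in WT replicate 2. Genes with at least 1 count numbered 10508, 10798, 10637 and 9402 in the same order, fewest in the library with the most counts. The cKO pair was more alike than the WT pair, with correlations of log2 CPM (CPM are counts divided by the TMM-scaled total and put on a common scale) of 0.911 and 0.764 over all genes tested. For Nat10, 101 and 72 counts in cKO stood against 77 and 148 in WT, and its log2 fold change of -0.18 did not pass (adjusted p = 0.907, edgeR), and whole-gene counts do not show whether an exon was deleted. Osteoclast markers such as Ctsk, at 1567 and 1575 CPM in cKO against 2240 and 2673 CPM in WT, were present in every library, and 5 B and T cell markers were at 0 in all. Neutrophil markers summed to 144 and 143 CPM in cKO against 335 and 219 CPM in WT, and erythroid and megakaryocyte markers to 42.5 and 34.4 CPM against 72.8 and 46.0 CPM, with none called. Of 11 tested stromal and osteoblast markers, 7 were lower in cKO by the edgeR test, against 0.754% of all genes. Their list summed to 660 and 619 CPM in cKO and to 4654 and 6050 CPM in WT, with Thy1 at 0 throughout. Runx2 and Pdgfrb of this list went the other way at low counts, without passing. Runx2 had 13 and 19 counts in cKO against 4 and 0 in WT, and Pdgfrb 34 and 19 against 8 and 5. Of the macrophage markers 2 of 8 were lower (sums of 39569 and 34968 CPM in cKO against 53586 and 68712 CPM in WT). Of the osteoclast markers 1 of 9 was lower (9376 and 8726 CPM in cKO against 13655 and 14315 CPM in WT). Log2 fold changes were positive for 3 macrophage markers (Mrc1, Mertk and Cd14), 1 osteoclast marker (Calcr) and 1 tested neutrophil marker (Mmp8), none passing. Mrc1 had 15.8 and 27.0 CPM in cKO against 7.72 and 9.95 CPM in WT. Calcr had 8.23 and 9.44 CPM against 2.21 and 1.03 CPM, and Mmp8 41.8 and 23.6 CPM against 21.0 and 3.43 CPM. Lyz2 alone supplied 22903 and 19660 CPM of the macrophage sums in cKO, and 33979 and 45731 CPM in WT. The part of these differences in the results below was not tested.

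Lysosomes are kept acidic by the V-ATPase, whose V1 sector hydrolyses ATP in the cytosol while its V0 sector moves protons across the membrane. In osteoclasts the same pump is sent to the ruffled border, the folded membrane facing bone, where its acid dissolves mineral and secreted lysosomal enzymes digest the matrix. The transcription factors TFEB and TFE3 switch on many lysosomal genes together by binding a short palindromic element in their promoters.

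Promoters of the set were searched for the element that TFEB and TFE3 bind, because it is the known shared feature of lysosomal genes. RefSeq promoter windows (build GRCm38.p6, 250 bases before and 50 after the start) were matched for 39 of the 47 genes by symbol. The letters CACGTG, an E-box that reads alike on both strands, stood in 12 of the 39 (30.8%), against 8.09% of all 27025 symbols in the table. TCACGTGA, a palindrome that contains it, was found in 5 of 39 (12.8%) against 1.12%. A palindrome of 10 letters around it, the core of the CLEAR element, stood in 1 of 39, Cln3, against 0.370%. A match of letters describes the window and does not show binding. The stretches below show the 5 promoters with the longer palindromes, and those of Lamp1, with 4 E-boxes, and of Glb1 and Lgmn, added because of their values. Capitals mark the matched letters, and each runs 5′ to 3′ on the gene's strand.
Cln3 (chr7:126583332-126583405, minus): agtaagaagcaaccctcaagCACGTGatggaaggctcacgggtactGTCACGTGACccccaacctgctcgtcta
Mcoln1 (chr8:3500428-3500499, plus): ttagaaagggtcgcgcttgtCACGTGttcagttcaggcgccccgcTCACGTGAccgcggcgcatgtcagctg
Atp6v1a (chr16:44139365-44139410, minus): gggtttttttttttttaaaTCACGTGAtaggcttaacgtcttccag
Atp6v0d1 (chr8:105566052-105566077, minus): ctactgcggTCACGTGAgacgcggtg
Atp6v0e (chr17:26676389-26676414, plus): gcgcgccgaTCACGTGAgcctctgtt
Lamp1 (chr8:13159080-13159160, plus): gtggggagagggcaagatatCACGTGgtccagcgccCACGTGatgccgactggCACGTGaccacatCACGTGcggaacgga
Glb1 (chr9:114401010-114401055, plus): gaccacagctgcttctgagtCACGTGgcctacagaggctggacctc
Lgmn (chr12:102439116-102439161, minus): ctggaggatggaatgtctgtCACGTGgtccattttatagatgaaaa

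The lysosomal genes took up a similar share of ribosome footprint counts in both genotypes. Together they held 3.20% and 3.45% of all counts in the cKO libraries, against 3.57% and 3.36% in the WT libraries. The groups overlapped, since WT replicate 2 lay below cKO replicate 2. A single gene, Psap, supplied 38.0% and 40.1% of these counts in cKO against 37.3% and 36.8% in WT. Of the 8 roles, the lipid and protein enzymes had the clearest separation, with 0.382% and 0.397% of all counts in cKO against 0.495% and 0.513% in WT. This separation rested on 1 gene, Lgmn, without which the groups of this role overlap. Lgmn held 1196 and 1165 of the role's 3845 and 3959 CPM in cKO, and 1748 and 2647 of its 4948.5 and 5308 CPM in WT. The glycan enzymes, at 0.270% and 0.261% in cKO against 0.285% and 0.310% in WT, also did not overlap, whereas the shares of the other roles did.

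**Figure D1:**
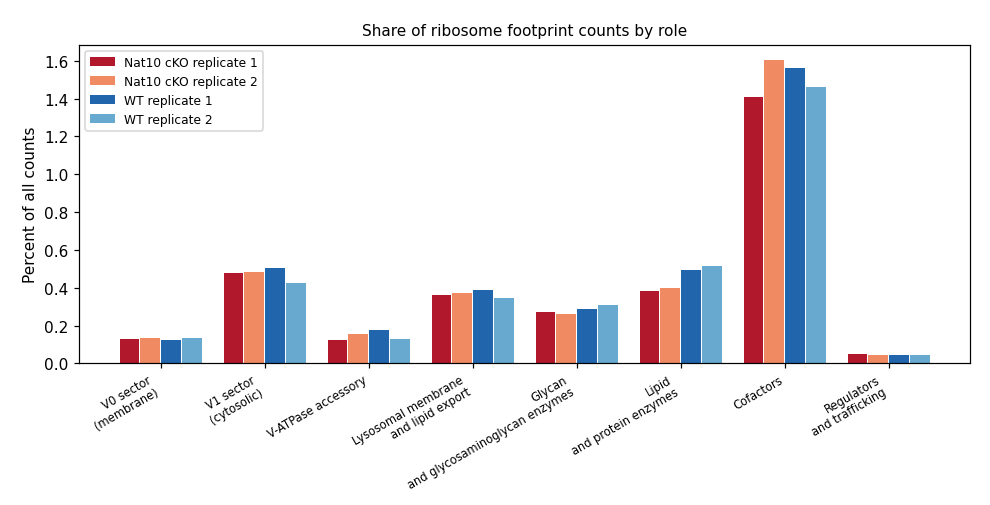
Percent of all counts (y axis) taken by each role of lysosomal and V-ATPase genes (x axis) in the 2 Nat10 cKO and the 2 WT libraries, 1 bar per library. Bars of the lipid and protein enzymes are lower in both cKO libraries (0.382% and 0.397%) than in both WT libraries (0.495% and 0.513%), and cofactors, chiefly Psap, take the most counts. The gap of the lipid and protein enzymes rests on Lgmn, without which the groups overlap.

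No gene of the set passed the test between genotypes after adjustment over all genes. By edgeR's quasi-likelihood test 0 of 47 were higher and 0 were lower at an adjusted p under 0.05, while 1.40% of the 7953 genes tested passed (0.641% higher and 0.754% lower in cKO). At an unadjusted p under 0.05 there were 3 higher (Cln3, Atp6v1h and Npc2) and 8 lower genes (Lgmn, Glb1, Atp6v0c, Cd63, Atp6v1a, Ppt1, Laptm5 and Hexa), where 5.63% and 6.50% of all genes passed. The median SE was 0.21 in the set and 0.55 over all genes, so a difference of equal size gives a smaller p in the set. DESeq2 called 0 higher and 1 lower, Lgmn (1.41% and 1.35% of all genes). By limma-voom 4 were called higher (Atp6v1c1, Atp6v1h, Npc2 and Cln3) and 4 lower (Cd63, Glb1, Ppt1 and Lgmn), beside 6.10% and 2.59% of all genes. Lgmn was also the single call, as lower, with no filter on low counts (1.48% of all genes higher, 1.44% lower), with at least 1 CPM in all libraries (1.24% and 1.24%) and with the replicate number as a block (0.842% and 0.956%). Other scalings called no member (0.641% and 0.704% of all genes by relative log expression and by total counts, 0.629% and 0.767% by upper quartile). The median log2 fold change of the set (cKO minus WT) was -0.08, beside -0.01 for all genes. The cKO values lay entirely above or below the WT values for 24 of the 47 genes, against 45.2% of all genes. These were 8 genes with cKO above and 16 with cKO below, where 22.7% and 22.6% of all genes stood. Of the 47 log2 fold changes, 44 lay within 1 of zero, beside 6197 of the 7953 genes tested. For 30 genes of the set the whole 95% interval did, beside 1379 of the 7953.

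**Figure D2:**
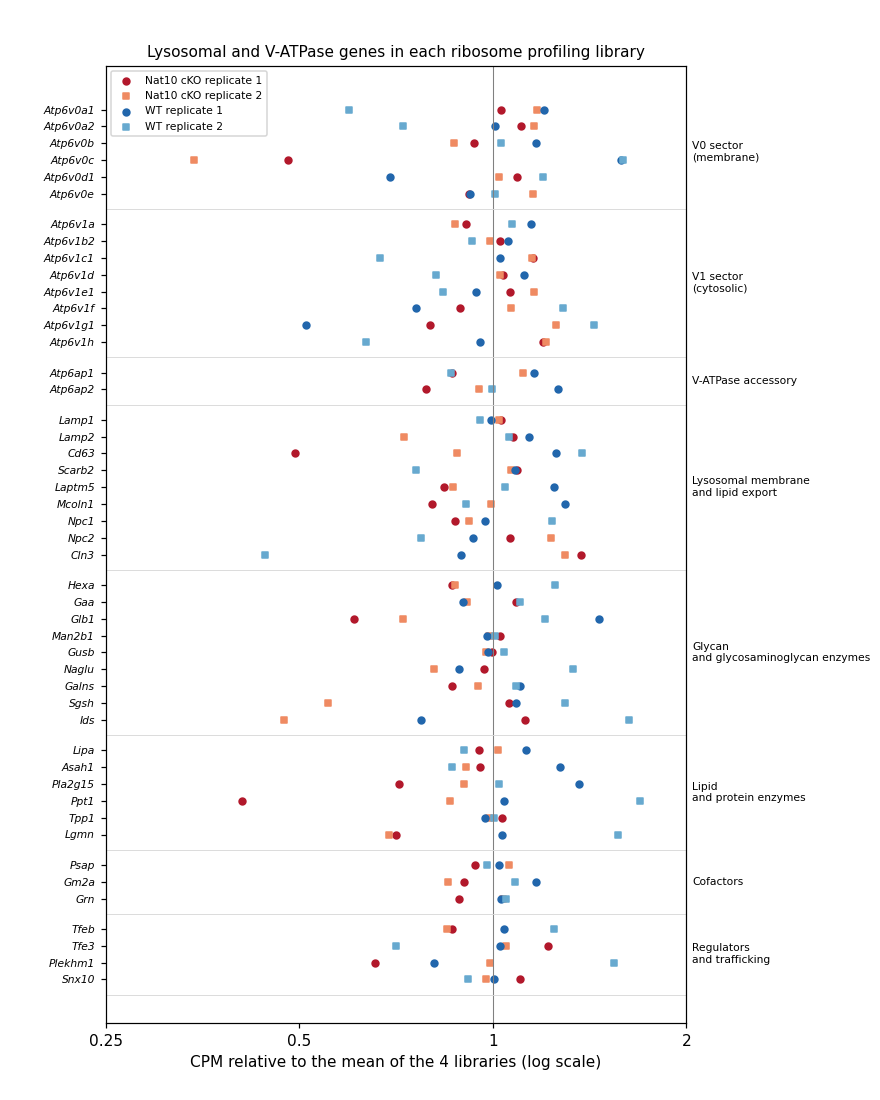
CPM of each gene in each library divided by its mean over the 4 libraries (x axis, log scale), with genes grouped by role down the page. Points of the same gene mostly sit near 1, and the 2 Nat10 cKO libraries lie together below the WT libraries for Atp6v0c, Glb1 and Lgmn and above them for Cln3.

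None of the 6 genes of the proton-carrying V0 sector passed, and Atp6v0c among them had the lowest log2 fold change of the set. Atp6v0c encodes subunit c, the main building block of the rotating ring (ENSMUSG00000024121, GRCm39 chromosome 17, 24382840 to 24388676, minus strand; positions of genes below are on the same build). It stood at 15.1 and 10.8 CPM in cKO, from 22 and 16 counts, against 49.6 and 50.1 CPM in WT, from 45 and 146 counts. The groups were well apart and the WT pair was close, and the log2 fold change was -1.94 (SE 0.53, 95% interval -3.15 to -0.73), with an adjusted p of 0.158 by edgeR. The pseudogenes Atp6v0c-ps1 and Atp6v0c-ps2 are listed in RefSeq, and the sources used here do not say how reads matching several genes were handled, so its counts are uncertain.

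The other ring gene, Atp6v0b, had 357 and 332 CPM in cKO against 446 and 393 CPM in WT (log2 -0.28, SE 0.18). Atp6v0d1, whose product links the ring to the central stalk, had 481 and 452 CPM in cKO, between the WT values of 305 and 528 CPM. Atp6v0e, a small membrane subunit, also overlapped between groups, at 318 and 400.4 CPM in cKO against 319.8 and 350.2 CPM in WT. The large a subunits that form the proton path, Atp6v0a1 and Atp6v0a2, had positive log2 fold changes of 0.33 (SE 0.44) and 0.40 (SE 0.42). Without WT replicate 2, Atp6v0a1 turned to -0.11.

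Of the 8 genes of the ATP-hydrolysing V1 sector, 6 had positive log2 fold changes, and none passed the threshold. Atp6v1h, the regulatory subunit that couples ATP use to the rest of the pump (chromosome 1, 5140241 to 5232752, plus strand), had 543 and 549 CPM in cKO against 433 and 288 CPM in WT. Both cKO values exceeded both WT values, by a log2 fold change of 0.61 (SE 0.21, adjusted p = 0.286, edgeR), or 0.35 without WT replicate 2 and 0.96 without WT replicate 1. Both cKO values were also above both WT values for 2 stalk genes, without passing: Atp6v1c1 had 440.3 and 438 CPM in cKO against 392 and 254 CPM in WT, and Atp6v1e1 had 661 and 721 CPM against 585 and 519 CPM.

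Atp6v1a, the catalytic subunit A (chromosome 16, 43905765 to 43960068, minus strand), had the opposite sign. Its CPM was 1556 and 1496 in cKO against 1962 and 1837 in WT, with no overlap and a log2 fold change of -0.32 (SE 0.12, adjusted p = 0.317, edgeR). Its partner in the catalytic head, Atp6v1b2, had 1169 and 1128 CPM in cKO, inside the WT range of 1060.1 to 1207 CPM. The rotor genes Atp6v1d and Atp6v1f had log2 fold changes of 0.10 and -0.08, with overlapping groups. Atp6v1g1, a stalk subunit, had only 10 and 16 counts in cKO against 4 and 36 in WT, and its interval from -2.73 to 2.80 is too wide to place its difference at this depth.

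Neither accessory protein of the pump passed. Atp6ap2, the (pro)renin receptor, which helps to assemble the V-ATPase, had 368 and 445 CPM in cKO against 589 and 466 CPM in WT (log2 -0.37, SE 0.19, adjusted p = 0.472, edgeR). Atp6ap1, a glycoprotein of the V0 sector, overlapped between groups with 871 and 1125 CPM in cKO against 1170.1 and 869.7 CPM in WT.

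Osteoclasts use particular isoforms of the a and d subunits, Tcirg1 (a3) and Atp6v0d2, which are not members of the set. Atp6v0d2 had 305 and 233 CPM in cKO against 440.04 and 403 CPM in WT (log2 -0.65, SE 0.20, adjusted p = 0.212, edgeR). Tcirg1, mutated in human osteopetrosis, had 832 and 812 CPM in cKO against 1122 and 1006 CPM in WT (log2 -0.37, SE 0.14, adjusted p = 0.312, edgeR). Both lay below WT in each cKO library, while Atp6v0d1, Atp6v0a1 and Atp6v0a2 did not. The ratio of Atp6v0d2 to Atp6v0d1 counts was 0.633 and 0.514 in cKO against 1.44 and 0.764 in WT. For Tcirg1 over the sum of Atp6v0a1 and Atp6v0a2 the ratio was 7.73 and 6.88 in cKO against 9.97 and 15.2 in WT. These 2 ratios and the 1 given below were chosen after the values were seen, and with 2 libraries against 2 an exact two-sided permutation test cannot give a p under 0.333, before or after adjustment over the 3 ratios. No change in the make-up of the pump can be called from them. The other 7 subunit isoforms looked up had few or no counts: 5 had no count in any library, and Atp6v1e2 and Atp6v1g2 had 4 and 2 counts in all.

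**Figure D3:**
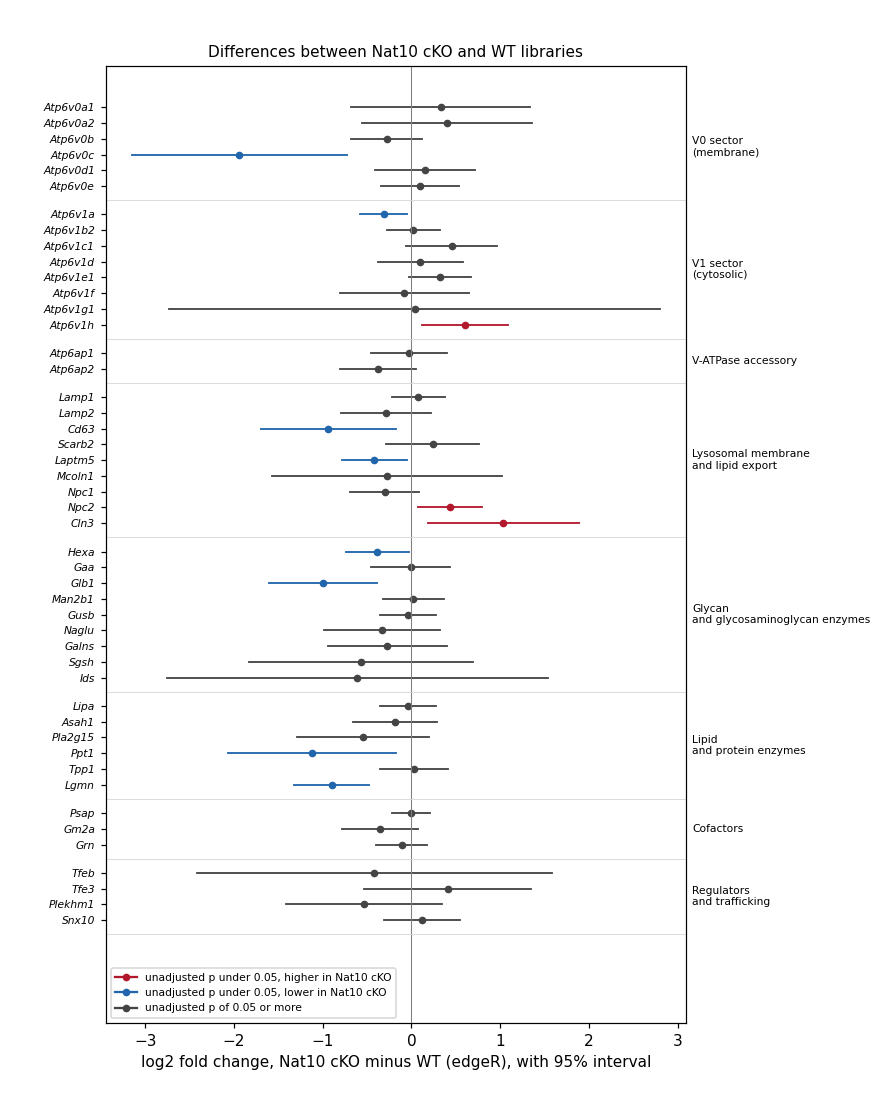
Log2 fold change of each gene (x axis, Nat10 cKO minus WT, edgeR) with its 95% interval, grouped by role down the page. Only the 11 coloured intervals leave out zero, from -1.94 for Atp6v0c to 1.04 for Cln3, and none passed after adjustment over all genes.

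Of the 9 genes of lysosomal membrane proteins and lipid export, 4 had positive and 5 negative log2 fold changes, none past the threshold. Lamp1, the most used marker of the lysosomal membrane, was steady at 919.7 and 915 CPM in cKO against 887 and 853 CPM in WT (log2 0.08, SE 0.13, interval -0.22 to 0.38). Lamp2, which also takes part in chaperone-mediated autophagy, had 360.1 and 244 CPM in cKO against 382 and 356 CPM in WT. Lamp2 had a log2 fold change of -0.29 (SE 0.22, adjusted p = 0.665, edgeR), with both cKO values inside or below the WT range.

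Cd63, a tetraspanin of late endosomes and lysosomes (chromosome 10, 128736858 to 128748691, plus strand), had 57.6 and 103 CPM in cKO against 147 and 161 CPM in WT. The WT pair was close and the cKO pair was not, and the log2 fold change was -0.94 (SE 0.33, adjusted p = 0.293, edgeR), or -0.55 without cKO replicate 1. A Cd63 pseudogene is listed in RefSeq, so these counts are uncertain too. Laptm5, a membrane protein of blood cell lysosomes, had 484 and 499 CPM in cKO against 716 and 602 CPM in WT, with a log2 fold change of -0.42 (SE 0.16, adjusted p = 0.335, edgeR), or -0.26 without WT replicate 1. Scarb2, the receptor that carries glucocerebrosidase to lysosomes, and Mcoln1, the lysosomal calcium channel, had overlapping groups and log2 fold changes of 0.24 and -0.28.

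Cholesterol leaves lysosomes through the NPC pair, and the members of this pair differed in sign. Npc2, the soluble carrier, had 845 and 981 CPM in cKO against 740.01 and 616 CPM in WT (log2 0.43, SE 0.16, adjusted p = 0.316, edgeR). Npc1, the membrane transporter, had 527 and 554 CPM in cKO against 586 and 746 CPM in WT (log2 -0.30, SE 0.17, adjusted p = 0.517, edgeR), or -0.10 without WT replicate 2. Npc1 shares 967 bases with Rmc1 on the opposite strand, a gene with 139 and 160 counts in cKO against 83 and 152 in WT. Their ratio, Npc2 over Npc1, was 1.60 and 1.77 in cKO against 1.26 and 0.826 in WT.

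Cln3 had the highest log2 fold change of the set. Its product is the membrane protein lost in juvenile Batten disease (chromosome 7, 126170379 to 126184989, minus strand). It stood at 134 and 127 CPM in cKO, against 87.1 and 43.2 CPM in WT, so both cKO values were higher, but the WT libraries themselves lay more than 2-fold apart. The log2 fold change was 1.04 (SE 0.38, 95% interval 0.18 to 1.89, adjusted p = 0.308, edgeR), and it was 0.59 without WT replicate 2 and 1.63 without WT replicate 1. Cln3 overlaps Apobr on the opposite strand by 876 bases, and the strand setting is not given, so reads of the pair cannot be told apart there.

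Of the 9 enzymes that digest glycans and glycosaminoglycans none passed, and 8 had log2 fold changes below zero (median -0.33, all genes -0.01). Without WT replicate 2, 4 of the 9 were below zero and the median was 0.019. Glb1, the beta-galactosidase of lysosomes that is also stained as a marker of ageing cells (chromosome 9, 114230144 to 114303966, plus strand), showed the widest gap. It had 83.0 and 99.1 CPM in cKO against 199.6 and 165 CPM in WT, so that every WT value was above every cKO value. The means were 91.0 ± 11.4 CPM in cKO against 182 ± 24.7 CPM in WT (SD, n = 2 each), a log2 fold change of -0.99 (SE 0.27, 95% interval -1.61 to -0.38, adjusted p = 0.151, edgeR). Glb1 shares 6172 bases with Tmppe on the same strand, a gene with 17 and 22 counts in cKO against 14 and 40 in WT.

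Hexa, a subunit of the hexosaminidase that is missing in Tay-Sachs disease (chromosome 9, 59446823 to 59472392, plus strand), had 639.9 and 646 CPM in cKO against 751 and 925 CPM in WT. The groups were apart, with a log2 fold change of -0.38 (SE 0.16, adjusted p = 0.367, edgeR), or -0.21 without WT replicate 2.

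Other enzymes of this role were among the steadiest genes of the set. Gusb, beta-glucuronidase, had 780.5 and 765 CPM in cKO against 771 and 816 CPM in WT. For Man2b1, alpha-mannosidase, the values were 564 and 542 CPM in cKO against 538 and 553 CPM in WT. Gaa, the enzyme of lysosomal glycogen breakdown, had 388 and 325 CPM in cKO against 321 and 393 CPM in WT. Their log2 fold changes of -0.04, 0.02 and -0.01 came with intervals no wider than -0.45 to 0.44. Naglu and Sgsh, which degrade heparan sulfate, Galns, a sulfatase of keratan sulfate, and Ids, the iduronate sulfatase, had log2 fold changes from -0.61 to -0.27. Ids had only 21 and 9 counts in cKO against 9 and 61 in WT, and Sgsh 47 and 25 against 30 and 115, so differences smaller than their intervals (-2.76 to 1.53 and -1.83 to 0.70) were not detectable.

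Lgmn, in the role of lipid and protein enzymes, came nearest to the threshold of all 47 genes. It encodes legumain, a protease that cuts after asparagine and activates cathepsins (ENSMUSG00000021190, chromosome 12, 102360343 to 102406072, minus strand). Its CPM was 1196 and 1165 in cKO, from 1744 and 1728 counts, against 1748 and 2647 in WT, from 1585 and 7717 counts. The cKO libraries were nearly equal and both lay below WT replicate 1, while WT replicate 2 was the highest by far. Means were 1180.4 ± 22.2 CPM in cKO against 2197 ± 635 CPM in WT (SD, n = 2 each), a log2 fold change of -0.90 (SE 0.18, 95% interval -1.32 to -0.48, adjusted p = 0.0587, edgeR). The size leaned on WT replicate 2, since it was -0.55 without that library and -1.13 without WT replicate 1. Over the alternative settings that kept all 4 libraries, the adjusted p ran from 6.11e-07 (edgeR, no filter on low counts) to 0.0634 (edgeR, total counts). DESeq2 gave 0.000143.

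Ppt1, the thioesterase that removes palmitate from proteins (chromosome 4, 122730035 to 122752968, plus strand), had 39.8 and 83.6 CPM in cKO against 101 and 165 CPM in WT. The groups did not overlap, but each pair was wide, and the log2 fold change was -1.12 (SE 0.42, adjusted p = 0.317, edgeR), or -0.65 without cKO replicate 1, -1.73 without cKO replicate 2 and -0.70 without WT replicate 2. Ppt1 overlaps Cap1, a gene on the opposite strand with 1521 and 1396 counts in cKO against 896 and 3510 in WT, by 129 bases. Pla2g15, a lysosomal phospholipase, had 60.4 and 76.2 CPM in cKO, both below the 115 and 86.1 CPM of WT (log2 -0.55, SE 0.33). Lipa, the acid lipase that frees cholesterol from its esters, had 1714 and 1840 CPM in cKO, within the WT range of 1627 to 2031 CPM. Asah1, acid ceramidase, and Tpp1, a tripeptidyl peptidase, also overlapped, with log2 fold changes of -0.19 and 0.03.

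Of the 3 cofactor genes none passed, and Psap was the most precisely measured gene of the set. Psap encodes prosaposin, which is cut into the saposins that present sphingolipids to their enzymes. It had 12237 and 13832 CPM in cKO against 13330.1 and 12798 CPM in WT, and its log2 fold change was -0.0032 (SE 0.09, 95% interval -0.22 to 0.21). Grn, the gene of progranulin, had 1663 and 1947 CPM in cKO against 1930.0 and 1969 CPM in WT (log2 -0.11, SE 0.12). Gm2a, the activator protein that hands GM2 ganglioside to hexosaminidase, had 265 and 250.1 CPM in cKO, below the 343 and 318 CPM of WT, with a log2 fold change of -0.36 (SE 0.19, adjusted p = 0.492, edgeR).

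None of the 4 regulators of lysosome formation and trafficking passed. Tfeb had 16 and 16 counts in cKO against 12 and 46 in WT, that is 11.0 and 10.8 CPM against 13.2 and 15.8 CPM (log2 -0.42, SE 0.88). Tfe3 had 60.4 and 51.9 CPM in cKO against 50.7 and 35.0 CPM in WT (log2 0.41, SE 0.41). Plekhm1, an adaptor for fusion with lysosomes that osteoclasts need for the ruffled border, had 62.4 and 94.4 CPM in cKO against 77.2 and 147 CPM in WT. Snx10, a sorting nexin mutated in human osteopetrosis, had 337 and 299 CPM in cKO against 307 and 280.2 CPM in WT. The interval of Tfeb, from -2.42 to 1.58, is too wide to show a difference of the size seen in most of the set.

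Genes with an E-box had log2 fold changes of both signs. Of the 12 holders, 4 had positive and 8 negative log2 fold changes (median -0.28), and of the 27 matched genes without it, 9 were positive and 18 negative (median -0.08). For the longer TCACGTGA the order was the other way round. Its holders were 3 positive and 2 negative (median 0.10), and genes without it 10 positive and 24 negative (median -0.20). With 1 library left out, the sign turned for the holders Atp6v0d1 (-0.14 to 0.63), Atp6v0e (-0.053 to 0.28) and Mcoln1 (-0.51 to 0.022). The order for this motif is therefore uncertain. Within the shown stretches the values ran from 1.04 for Cln3, through 0.15 for Atp6v0d1 and 0.10 for Atp6v0e, to -0.90 for Lgmn and -0.99 for Glb1. The E-box began 49 bases before the start in Lgmn and 48 in Glb1, and the longest match began 123 bases before it in Cln3.

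Wider genes of the lysosome, 76 found by symbol in lists of other subunits, enzymes, membrane proteins, nutrient sensors and sorting factors, held no call in the analysis of all 4 libraries. Of the 67 tested, 0 were higher and 0 lower by edgeR against 1.40% of all genes called, and the median log2 fold change was -0.09. At an unadjusted p under 0.05 there were 9 of the 67 (13.4%), where 12.1% of all genes passed. DESeq2 called 1 of them (Manba, lower), beside 1.41% of all genes higher and 1.35% lower. Limma-voom called 7 (3 higher and 4 lower), beside 6.10% and 2.59% of all genes. Without a filter on low counts edgeR called 3 (Flcn higher, Arsb and Manba lower), beside 1.48% and 1.44%. With 1 library left out, the median log2 fold change of these genes ran from -0.17 without cKO replicate 2 to -0.03 without cKO replicate 1. Among other enzymes and cofactors (23 tested, median -0.09), Manba, beta-mannosidase, had 153 and 148 CPM in cKO against 277 and 280.2 CPM in WT (log2 -0.89, SE 0.21, adjusted p = 0.109, edgeR). Arsb, a sulfatase of dermatan sulfate, had 51.4 and 45.8 CPM in cKO against 141 and 106 CPM in WT (log2 -1.34, SE 0.32, adjusted p = 0.113, edgeR). These 2 enzymes, like Glb1, were lower in each cKO library than in either WT library, without passing. That held for 6 of the 23 in this list and for 22.6% of all genes.

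Of 17 other membrane proteins (median -0.14), the smallest p-values belonged to Spns1, a lysosomal lipid transporter, at 18.5 and 23.6 CPM in cKO against 38.6 and 88.5 CPM in WT, and to Slc17a5, the sialic acid exporter, at 8.92 and 30.3 CPM against 59.6 and 47.0 CPM. Among 13 tested genes of nutrient sensing and the MiT factors (median -0.18), Flcn, the folliculin gene that controls where TFEB resides, had 61.0 and 27.6 CPM in cKO against 17.6 and 1.72 CPM in WT (log2 2.37, SE 0.99, adjusted p = 0.384, edgeR). Its log2 fold change was 1.34 without WT replicate 2 and 4.67 without WT replicate 1, and 1.59 without cKO replicate 1. Rragc, a GTPase of the same circuit, had 117 and 82.2 CPM in cKO against 138 and 177 CPM in WT. The sorting factors (12 tested, median -0.04) included M6pr, a mannose 6-phosphate receptor that brings new enzymes to the lysosome, at 547 and 496 CPM in cKO against 339.7 and 373 CPM in WT (log2 0.55, SE 0.17, adjusted p = 0.206, edgeR). Gnptab, whose enzyme makes the mannose 6-phosphate tag, had 96.7 and 60.0 CPM in cKO against 121 and 147 CPM in WT (log2 -0.78, SE 0.33, adjusted p = 0.382, edgeR). Over the fits that left out 1 library, the log2 fold change ran from -2.03 to -0.85 for Spns1, from -2.54 to -0.78 for Slc17a5, from -0.91 to -0.41 for Rragc and from -1.14 to -0.45 for Gnptab. M6pr and Gnptab thus had opposite signs, neither past the threshold. Others of the same list went either way, with log2 fold changes of -0.17 for Igf2r, 0.22 for Gnptg and 0.84 for Nagpa (SE 0.13, 0.64 and 0.75). The signs of M6pr and Gnptab therefore do not describe the route as a whole.

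Among genes with at least 50 counts in both libraries, the median absolute log2 ratio within the cKO pair was 0.10 for the set and 0.22 for all genes, and within the WT pair 0.29 and 0.35. Between genotypes, WT replicate 1 stood 0.23 and 0.28 from cKO replicates 1 and 2 for the set (0.34 and 0.325 for all genes). WT replicate 2 stood 0.34 and 0.33 from them (0.46 and 0.45 for all genes). On this measure WT replicate 1 was nearer to both cKO libraries than to WT replicate 2. Between the WT libraries Atp6v0a1, Atp6v1g1, Cln3 and Ids differed by more than 2-fold, and between the cKO libraries Ppt1 and Ids did. Leaving out WT replicate 1 gave 6 higher and 8 lower members by edgeR (15.3% and 12.1% of all genes), and leaving out WT replicate 2 gave 1 higher and 5 lower (2.94% and 2.55%). In both fits the lone WT library is assumed to vary like the cKO libraries. Without cKO replicate 1 no gene of the set passed (0.396% and 0.430% of all genes were higher and lower), and without cKO replicate 2 none did either (0.452% and 0.475%), with 4 and 5 members at an unadjusted p under 0.05 (5.09% and 6.09% of all genes).

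**Figure D4:**
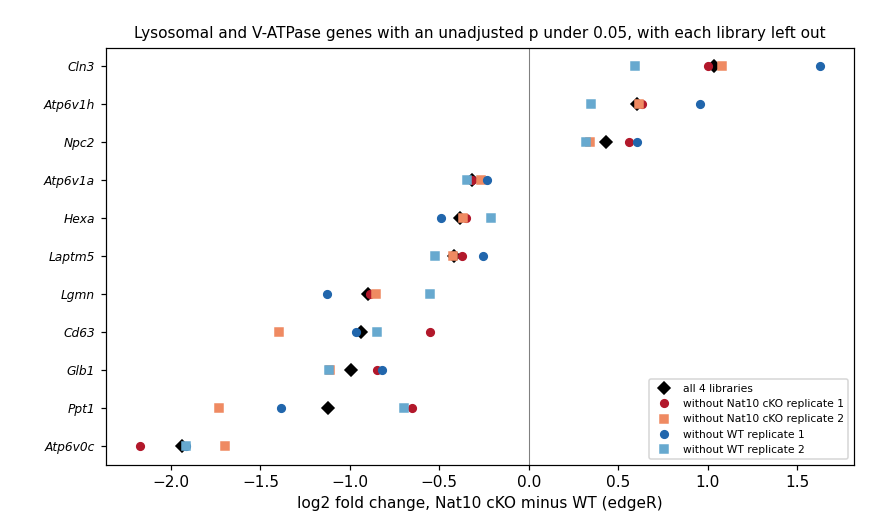
Log2 fold change (x axis, Nat10 cKO minus WT, edgeR) of the 11 genes with an unadjusted p under 0.05, from all 4 libraries (diamonds) and with each library left out (coloured points). Every point stays on its side of zero, which the choice of genes nearly fixes, since the cKO and WT values of all 11 do not overlap. Cln3 runs from 0.59 without WT replicate 2 to 1.63 without WT replicate 1.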

How the data were processed

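The authors deposited whole-number raw counts per gene for the 4 libraries, per the file headers, in 1 table with GRCm39 coordinates and annotation. The tools fastp, STAR, Bowtie and HTSeq and the build GRCm39 (mm39) are listed in the submitters' processing notes, without versions or roles. The sources used here do not state the counted region, the strand setting or the handling of reads matching several genes. Per the labels' protocols, the PBS for washing held cycloheximide, rRNA was removed with a depletion kit and a miRNA library kit was used.

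From these deposited counts, the table was filtered with filterByExpr at a minimum count of 10 and a total of 15, TMM factors were computed, and genotype was tested alone by edgeR 4.0.16 (R 4.3.3, robust quasi-likelihood). Benjamini-Hochberg adjustment ran over all 7953 tested genes, with 0.05 as the threshold. CPM values use TMM-scaled totals. The 12 alternatives included DESeq2 1.42.0, limma 3.58.1 (voom), other scalings and filters, the replicate number as a block and each library left out. The pipeline was tested on simulated data. No library was a copy of another (chi-square per degree of freedom at least 4.99).

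The members, roles and lists were chosen with earlier results of these data known. Genes were named by rule for an unadjusted p under 0.05, for the 2 smallest p-values in each role or list of other genes, and for Tfeb and Tfe3. The other genes with values per library, Ctsk among them, were chosen after their values were seen. Levels per codon were planned but not computed, because no coding lengths were used here, so levels are compared between libraries and not between genes. A further ratio between partner genes was also looked at and is not reported here; the adjustment covers the 3 ratios given.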

Additional observations from a re-analysis of the deposited data

How the results depend on the processing

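Only 2 libraries per genotype and counts that differ widely between genes limit what could be detected: intervals were narrow for Psap and Lamp1 and wide for Tfeb, Ids and Atp6v1g1. No members were called under the other scalings. The count of lower members was 1 (Lgmn) with no filter on low counts, with at least 1 CPM in all libraries, with DESeq2 and with the replicate number as a block, and limma-voom called 4 higher and 4 lower. Leaving out a library gave 0 to 6 higher and 0 to 8 lower members and medians from -0.14 to -0.03; where an arm was left with 1 library, that library was assumed to vary like the other pair. Over all genes, 111 passed in the analysis reported, and from 73 to 2420 did under the alternatives. The causes of these changes were not tested.

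No pairing by replicate number is given in the sample labels. Deviations within the groups had a correlation of -0.016 between equal replicate numbers, which cannot show whether a culture or day was shared. As a block, the replicate numbers moved the calls over all genes to 143. Of the 47 genes, 29 kept the sign of their log2 fold change under all 12 alternatives. Psap turned to 0.0061 with relative log expression scaling, 0.014 with total counts, 0.019 without a filter, 0.019 with the CPM filter, 0.0062 with DESeq2 and 0.0092 with limma-voom, and Gaa to 0.0023, 0.013, 0.013, 0.017 and 0.0011 under the first 5 of these. By limma-voom Atp6ap1 (0.055), Lipa (0.029) and Atp6v1g1 (-0.32) also turned. Over the fits that leave out 1 library, the log2 fold change crossed zero for Atp6v0a1 (-0.11 to 0.92), Atp6v0d1 (-0.14 to 0.63), Atp6v0e (-0.053 to 0.28), Atp6v1b2 (-0.056 to 0.15), Atp6v1d (-0.10 to 0.37), Atp6v1f (-0.36 to 0.38), Atp6v1g1 (-0.44 to 1.001), Atp6ap1 (-0.21 to 0.23), Mcoln1 (-0.51 to 0.022), Gaa (-0.11 to 0.17), Gusb (-0.043 to 0.019), Naglu (-0.55 to 0.019), Ids (-1.32 to 0.056), Lipa (-0.18 to 0.16), Asah1 (-0.43 to 0.14), Psap (-0.073 to 0.11), Grn (-0.21 to 0.023) and Plekhm1 (-0.87 to 0.039), and for Nat10 itself (-0.51 to 0.25). The planned level per codon was not run.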
